A study of Mus musculus with 4 samples.

Results

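Binding of the transcription factors JunB, BATF and IRF4 was examined around 10 mouse genes that control programmed cell death, in regulatory T (Treg) cells. The genes comprised the anti-apoptotic BCL2 family members Bcl2, Bcl2l1 (encoding BCL-XL) and Mcl1, the pore-forming effectors Bax and Bak1, the BH3-only genes Bcl2l11 (encoding BIM), Bbc3 (encoding PUMA) and Pmaip1 (encoding NOXA), the death receptor gene Fas, and Casp8, which encodes the initiator caspase downstream of Fas. The genes are given by name and not by a threshold on these data, but with earlier results of the data known. A peak was assigned to a gene when its centre lay within 50 kb of any annotated transcription start site (TSS) of that gene in the mouse genome assembly mm9. By this rule 177 of the 103355 peaks in 4 lists were assigned, namely 37 of 29659 JunB peaks, 24 of 13570 BATF peaks, 58 of 31093 IRF4 peaks in Junb-sufficient cells and 58 of 29033 IRF4 peaks in Junb-deficient cells. No peak was assigned to more than 1 of the 10 genes.

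In chromatin immunoprecipitation-sequencing (ChIP-seq), an antibody pulls down a protein together with its DNA, the DNA is sequenced, and positions where fragments pile up are called as peaks. Treg cells sorted as CD4+CD25+ from spleens of C57BL/6 mice were activated with antibodies to CD3 and CD28 plus IL-2 for 60 h, and their chromatin was cut with micrococcal nuclease. All 3 factors were pulled down in Junb-sufficient cells and only IRF4 in Junb-deficient cells, with 1 library per condition. The comparison of both IRF4 libraries addressed whether IRF4 occupies the same sites when JunB is absent. According to the study's methods, Junb-sufficient cells came from Junb fl/fl mice and Junb-deficient cells from Cd4-Cre Junb fl/fl mice, in which Cre is driven in all T cells and not in Treg cells alone. Mice were 6 to 12 weeks old. The sample labels instead give Foxp3cre JUNB+/+ and Foxp3cre JUNBFl/Fl, so the driver of the deletion, and whether the controls carried Cre, could not be settled. An antibody field of the labels also exchanges BATF and IRF4 between the libraries of Junb-sufficient cells, whereas the titles and the file headers do not, and the titles were followed. By the titles, the IRF4 libraries held 31093 and 29033 peaks with 12.76% and 11.15% of their tags in peaks, and the BATF library 13570 peaks with 5.03%. The study states that ChIP-seq was repeated, but a repeat was not analysed here. How many animals were pooled for a library was not given in the sources used here.

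The libraries held 21127029 to 27399986 aligned tags, of which 4.27% to 12.76% fell in peaks. The lists hold positions only, since their score column is 1 for every peak, and a peak could therefore be read as listed or not listed, without its height. The width was 151 bp for JunB peaks and 613 bp for BATF peaks and IRF4 peaks of Junb-sufficient cells. The place of a peak in its list was given as a rough ordering, with place 1 at the top. Each list was made of stretches sorted by chromosome, as peaks of equal strength would give, so that places within a stretch carried no information, and 60.6% to 91.3% of the peaks stood in stretches of at least 100. With 1 library per condition no test between genotypes could be made. Intervals are exact binomial (Clopper-Pearson) 95% intervals over peaks, which cover counting error only and not the variation between cell preparations.

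BCL2 family proteins meet at the outer mitochondrial membrane. Anti-apoptotic members hold BAX and BAK in check, BH3-only proteins displace them from that hold or engage the effectors directly, and freed BAX and BAK permeabilise the membrane. Death receptors of the TNF receptor family such as Fas reach caspases through an adaptor and caspase-8 and can do so without mitochondria. In Treg cells, IL-2 signalling, MCL1 and BIM are known to govern how long the cells survive. JunB and BATF are basic leucine zipper proteins that pair on AP-1 sites, and IRF4 joins such pairs on composite elements in which an IRF motif lies next to an AP-1 motif.

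JunB peaks, with a width of 151 bp set for the whole list, were the narrowest listed at these loci. The reference sequence (mm9, plus strand) of the peak that stood highest in the JunB list is shown for each gene that had one, except Pmaip1 and Fas. Capitals mark exact matches to the AP-1 consensus, TGACTCA or its reverse complement TGAGTCA, and, where it adjoins such a match, the IRF motif GAAA, which together form the composite element called AICE.
Bcl2, chr1:108597215-108597365: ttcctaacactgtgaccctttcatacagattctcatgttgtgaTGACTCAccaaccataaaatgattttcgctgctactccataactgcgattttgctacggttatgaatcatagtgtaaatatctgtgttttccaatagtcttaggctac
Bcl2l1, chr2:152616800-152616950: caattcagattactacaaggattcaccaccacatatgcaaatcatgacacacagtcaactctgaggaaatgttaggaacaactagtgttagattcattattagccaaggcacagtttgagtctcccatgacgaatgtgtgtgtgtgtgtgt
Mcl1, chr3:95442178-95442328: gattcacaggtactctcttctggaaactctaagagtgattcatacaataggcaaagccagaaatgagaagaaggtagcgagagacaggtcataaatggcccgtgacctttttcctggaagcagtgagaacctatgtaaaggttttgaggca
Bak1, chr17:27192315-27192465: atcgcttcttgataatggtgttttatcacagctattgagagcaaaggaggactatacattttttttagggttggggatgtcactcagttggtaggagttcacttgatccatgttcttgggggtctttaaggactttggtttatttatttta
Bcl2l11, chr2:127943631-127943781: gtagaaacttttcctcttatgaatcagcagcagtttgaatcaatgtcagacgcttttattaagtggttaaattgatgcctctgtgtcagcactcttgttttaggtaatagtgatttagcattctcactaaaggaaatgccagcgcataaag
Bbc3, chr7:16929124-16929274: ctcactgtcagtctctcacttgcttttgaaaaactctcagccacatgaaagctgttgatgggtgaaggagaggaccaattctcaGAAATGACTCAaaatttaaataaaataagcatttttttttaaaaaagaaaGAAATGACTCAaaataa
Casp8, chr1:58887855-58888005: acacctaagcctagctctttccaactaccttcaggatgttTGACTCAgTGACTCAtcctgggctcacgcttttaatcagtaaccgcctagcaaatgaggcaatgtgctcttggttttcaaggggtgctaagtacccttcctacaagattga
Of these 7 sequences, those of Bcl2, Bbc3 and Casp8 held an exact AP-1 match. The Bbc3 and Casp8 sequences held 2 matches each, and both matches of Bbc3 adjoined a GAAA motif. The Bcl2l11 and Mcl1 sequences held no exact match but 2 and 1 copies of TGANTCA, in which any middle base is allowed (N).

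Also shown, and chosen after their values were seen, are the JunB peaks under the 4 IRF4 peaks that overlapped JunB and had no counterpart in Junb-deficient cells.
Bcl2l1, chr2:152613346-152613496: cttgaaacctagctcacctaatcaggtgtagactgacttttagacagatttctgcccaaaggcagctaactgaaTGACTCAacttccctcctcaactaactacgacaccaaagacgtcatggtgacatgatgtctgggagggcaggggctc
Bbc3, chr7:16882199-16882349: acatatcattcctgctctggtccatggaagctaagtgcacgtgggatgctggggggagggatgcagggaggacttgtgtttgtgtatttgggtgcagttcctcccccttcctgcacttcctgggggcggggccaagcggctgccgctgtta
Casp8, chr1:58854415-58854565: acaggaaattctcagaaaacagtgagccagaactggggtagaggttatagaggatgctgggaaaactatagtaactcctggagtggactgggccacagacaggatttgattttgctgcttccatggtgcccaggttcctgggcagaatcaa
Casp8, chr1:58818201-58818351: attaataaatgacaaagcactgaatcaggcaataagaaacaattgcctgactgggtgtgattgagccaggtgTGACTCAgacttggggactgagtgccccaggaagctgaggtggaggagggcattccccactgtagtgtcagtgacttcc
An exact AP-1 match was present in 2 of these 4, at Bcl2l1 and at the upstream site of Casp8.

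All 10 genes had IRF4 peaks within 50 kb in both genotypes, whereas JunB peaks ranged from 0 at Bax to 8 at Mcl1 and at Bcl2l11. JunB and BATF peaks were each listed at 9 of the 10 genes, with Bax lacking JunB and Bak1 lacking BATF. Over all 22380 protein-coding genes, the share with at least 1 peak within the same distance was 64.8% in the JunB list, 48.9% in the BATF list, and 74.0% and 73.3% in the IRF4 lists without and with loss of JunB. A triple site, meaning a JunB peak that shares at least 1 bp with a BATF peak and with an IRF4 peak of Junb-sufficient cells, was listed at 8 of the 10 genes, against 35.1% of protein-coding genes. The genes without a triple site were the effectors Bax and Bak1. The median over the 10 genes was 3 JunB, 2 BATF, 6 IRF4 and 6 Junb-deficient IRF4 peaks, beside medians of 1, 0, 2 and 2 over all protein-coding genes. The windows of the 10 genes spanned 100 to 107 kb. Whether their gene density or chromatin accounts for the difference from other genes was not tested.

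**Figure D1:**
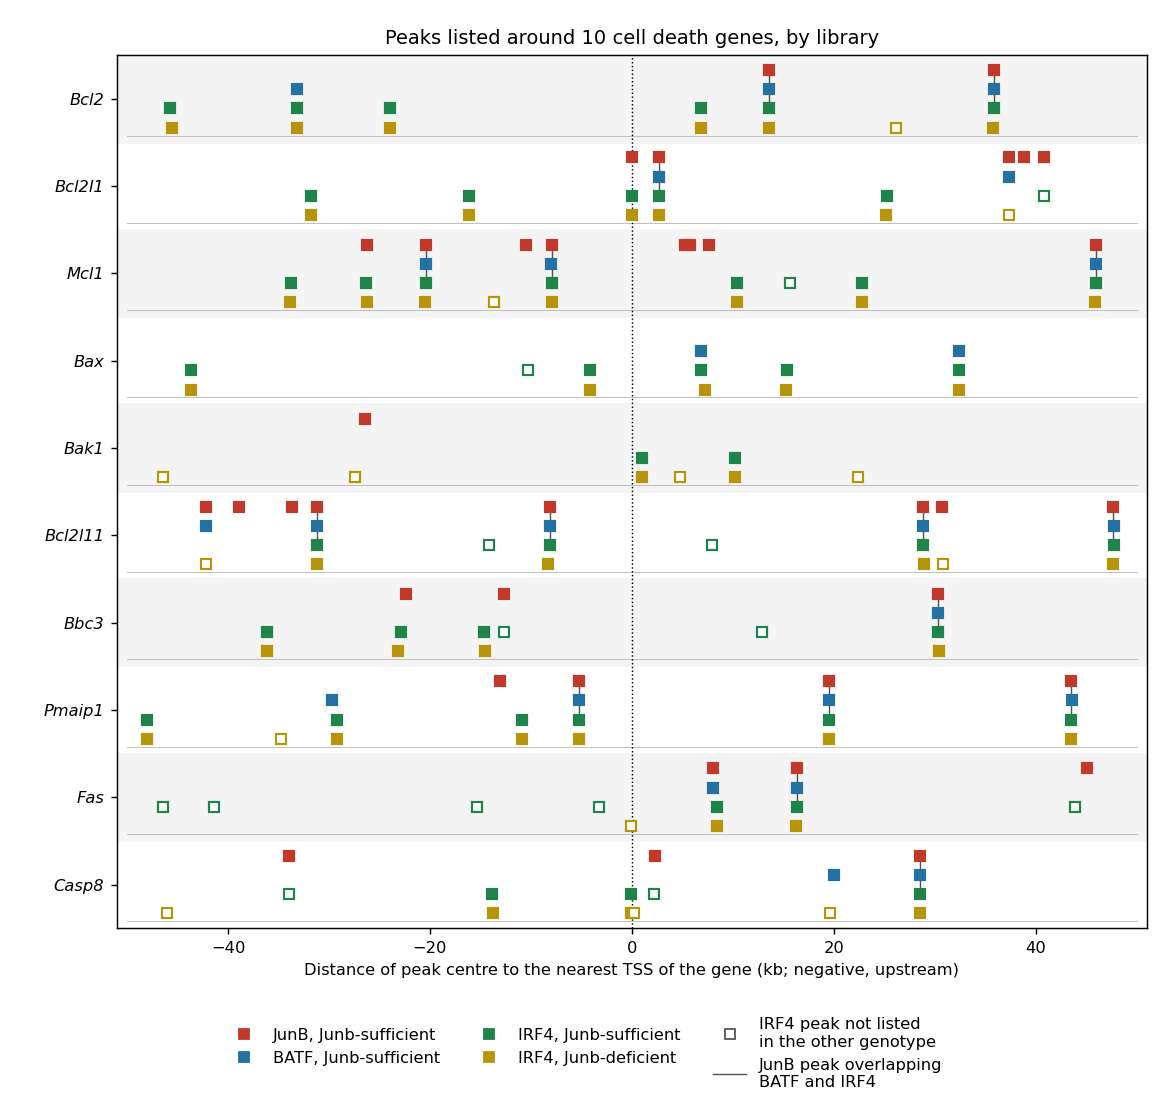
Positions of the peaks around the 10 genes, with the distance of the peak centre to the nearest TSS of the gene in kb on the x axis and 1 row of squares per library within each gene. Open squares are IRF4 peaks not listed in the other genotype and vertical lines join triple sites. Every triple site is underlain by a filled square of Junb-deficient IRF4. Open green squares are most frequent at Fas, where 5 of 7 IRF4 peaks had no counterpart. All 5 overlapped neither JunB nor BATF, and 44.1% of such peaks near all protein-coding genes had none.

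**Figure D2:**
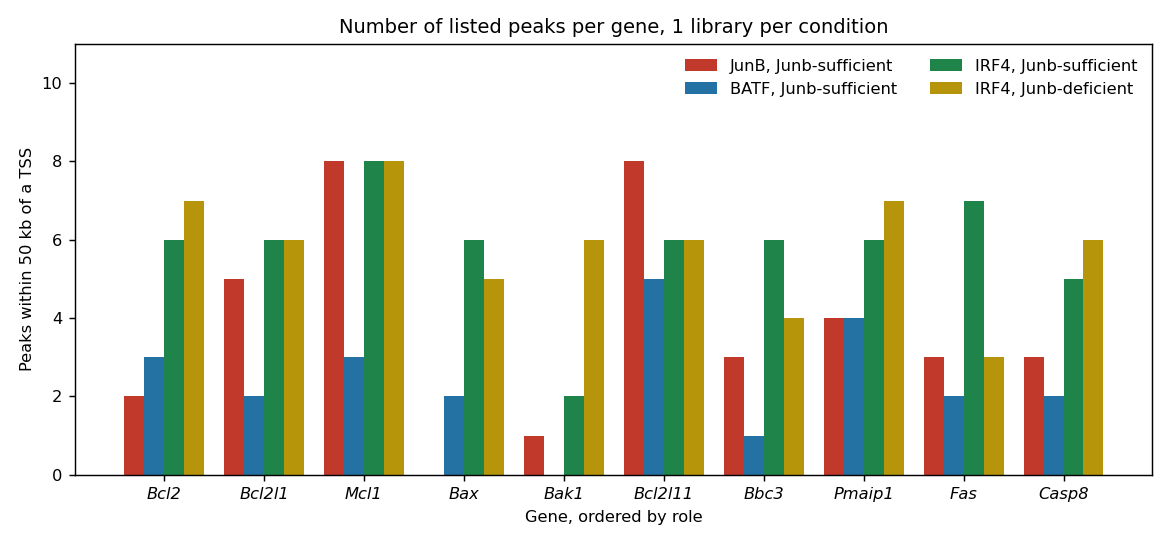
Number of peaks with a centre within 50 kb of a TSS, on the y axis, for each gene on the x axis and each library by colour (1 library per condition, so there are no error bars). JunB bars reach 8 at Mcl1 and Bcl2l11 and are absent at Bax, and the Junb-deficient IRF4 bar is higher than the Junb-sufficient one at Bak1 (6 against 2) and lower at Fas (3 against 7).

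Bcl2, whose product keeps BAX and BAK inactive, lies on the minus strand of chromosome 1 from 108434755 to 108610851. It had 2 JunB, 3 BATF and 6 IRF4 peaks, and 7 IRF4 peaks in Junb-deficient cells. Both JunB peaks were triple sites within introns of Bcl2, and IRF4 was listed at both without JunB. The first, at TSS +13.6 kb with an AP-1 match, stood at place 3558 for JunB, 3387 for BATF and 5165 for IRF4, and at place 15904 for IRF4 in Junb-deficient cells. The other, at TSS +35.9 kb (chr1:108574888-108575038), stood at places 12486, 7580 and 3325, and at place 1560 in Junb-deficient cells. As a share of each list, IRF4 moved from 16.6% to 54.8% at the first site and from 10.7% to 5.37% at the other. Of all kept JunB-shared peaks, whatever their starting place, 7.28% and 20.1% moved at least as far in the same direction. An IRF4 peak at TSS +6.82 kb, with neither JunB nor BATF, was listed at place 5102 and in Junb-deficient cells at place 2149. No IRF4 peak of Bcl2 was missing in Junb-deficient cells, and 1 peak was listed there alone, at TSS +26.1 kb and place 13774. The 3 remaining IRF4 peaks, at TSS -24.0, -33.2 and -45.8 kb, were nearer to a TSS of Kdsr than to that of Bcl2, the last of them by its centre 304 bp from the Kdsr TSS.

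Bcl2l1 encodes BCL-XL, which shares this guarding role. The gene spans 152593052 to 152657464 on the minus strand of chromosome 2 and has 10 annotated TSSs. It had 5 JunB, 2 BATF and 6 IRF4 peaks, and 6 IRF4 peaks in Junb-deficient cells. Bcl2l1 was the only gene of the 10 with a JunB peak within 1 kb of a TSS, against 7.69% of protein-coding genes. This peak, at chr2:152655996-152656146 and place 19616, had its centre 25 bp from a TSS and overlapped IRF4 peaks at place 3530 in Junb-sufficient and place 2006 in Junb-deficient cells. The triple site lay in an intron at TSS +2.68 kb (chr2:152651516-152651666), at place 4435 for JunB, 2606 for BATF, 2607 for IRF4 and 1305 for IRF4 in Junb-deficient cells. IRF4 therefore stood at the start of Bcl2l1 and at its triple site in both genotypes.

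Farther into the gene, around TSS +37.4 to +40.9 kb, the IRF4 lists of the genotypes differed. These positions lie in an intron of Bcl2l1, but the nearest TSS is that of Cox4i2. An IRF4 peak at TSS +40.9 kb (chr2:152613115-152613727) stood at place 920, among the first 2.96% of its list, and overlapped a JunB peak at place 4080 with an AP-1 match but no BATF peak. It had no counterpart in Junb-deficient cells, where the nearest IRF4 peak was centred 3441 bp away. That peak (chr2:152616560-152617164) was listed in Junb-deficient cells alone, at place 2490, and covered the highest JunB peak of the gene, at place 2258, and a BATF peak at place 1178. Each genotype thus had an IRF4 peak on a JunB peak in this intron, on different JunB peaks. HOMER keeps IRF4 peaks at least 1224 bp apart in Junb-sufficient and 1210 bp in Junb-deficient cells and requires each to exceed the surrounding 10 kb by 4-fold, and whether a neighbouring peak removed another here was not tested.

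Mcl1, an anti-apoptotic gene with a short-lived product, lies on the plus strand of chromosome 3 from 95462643 to 95467099. It had 8 JunB, 3 BATF and 8 IRF4 peaks, and 8 IRF4 peaks in Junb-deficient cells. Only 2.79% of protein-coding genes had at least as many JunB peaks. All 8 JunB peaks lay outside annotated protein-coding genes, and 3 were triple sites that IRF4 kept in Junb-deficient cells. The site at TSS -20.4 kb stood at place 1863 for JunB, 3828 for BATF, 4862 for IRF4 and 6169 for IRF4 in Junb-deficient cells. A second, at TSS +46.0 kb (chr3:95508532-95508682), stood at places 2107, 953 and 1341, and at place 137 in Junb-deficient cells, the highest Junb-deficient place at any of the 10 genes but one at Bcl2l11. The third, at TSS -7.93 kb (chr3:95454634-95454784) with an AP-1 match, stood at places 2703, 3955, 6113 and 5975. That at TSS +46.0 kb was nearer to Adamtsl4 and that at TSS -20.4 kb nearer to Ensa, so that the site at TSS -7.93 kb was the only triple site with Mcl1 as the nearest gene. Of the other 5 JunB peaks, 4 overlapped neither BATF nor IRF4 in either genotype, between TSS -10.4 and +7.63 kb. The fifth, at TSS -26.2 kb and place 24390, overlapped an IRF4 peak that was listed in both genotypes. A single IRF4 peak was missing in Junb-deficient cells, at TSS +15.7 kb and place 8143, and it overlapped neither JunB nor BATF.

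Among the effectors, Bax and Bak1 encode the proteins that form the mitochondrial pore. Bax (chr7:52717065-52722268, minus strand) had 0 JunB, 2 BATF and 6 IRF4 peaks, and 5 IRF4 peaks in Junb-deficient cells. Within 50 kb lay TSSs of 7 other protein-coding genes. Only the IRF4 peak at TSS -4.17 kb had the Bax TSS as the nearest one, at place 28309 in Junb-sufficient and 23560 in Junb-deficient cells, whereas 4 of the other 5 were centred within 9 to 412 bp of the TSSs of Ftl1, Nucb1, Ruvbl2 and Gys1. The missing one, at TSS -10.3 kb and place 26682, was nearest to Dhdh. The peaks counted for Bax thus lay for the most part at the promoters of its neighbours.

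Bak1 (chr17:27156755-27165954, minus strand) had 1 JunB peak, at TSS -26.4 kb and place 23860, no BATF peak and 2 IRF4 peaks. In Junb-deficient cells 6 IRF4 peaks were listed. Both IRF4 peaks of Junb-sufficient cells were kept. One was centred 1029 bp downstream of a Bak1 TSS in an intron, at place 11311 against 7926 in Junb-deficient cells, just beyond the limit of 1 kb used for a TSS. The 4 peaks listed in Junb-deficient cells alone stood at places 17155 to 26638, in the lower part of that list, and none overlapped JunB. All 4 were nearest to Ggnbp1 or Itpr3, not Bak1.

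Bcl2l11 encodes BIM, the BH3-only protein that removes T cells when cytokine or antigen signals end. The gene (chr2:127951774-127988283, plus strand) had 8 JunB, 5 BATF and 6 IRF4 peaks, and 6 IRF4 peaks in Junb-deficient cells. Its 4 triple sites were the most among the 10 genes, and 2.11% of protein-coding genes had at least as many. The site at TSS -8.07 kb, in an intron of the neighbouring gene Acoxl, stood near the top of all 4 lists, at place 401 for JunB, 85 for BATF, 28 for IRF4 and 75 for IRF4 in Junb-deficient cells. No AP-1 match was found within 100 bp of the centre of its JunB peak. The site at TSS +28.9 kb (chr2:127982684-127982834), in an intron of Bcl2l11, stood at places 1580, 314 and 450, and at place 1603 in Junb-deficient cells. The remaining triple sites, at TSS -31.2 kb (chr2:127920483-127920633) and +47.7 kb (chr2:128001497-128001647), stood at JunB places 4645 and 10007, and their IRF4 peaks at places 2580 and 3051 against 2782 and 6358 in Junb-deficient cells. IRF4 was thus listed at all 4 without JunB. As a share of the list its place moved down by 0.168, 4.07, 1.28 and 12.1 percentage points at the sites in the order given. Of all kept JunB-shared peaks, whatever their starting place, 59.5%, 44.1%, 53.7% and 28.2% moved down at least as far.

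IRF4 peaks of Bcl2l11 listed in Junb-deficient cells alone numbered 2, and both covered JunB peaks of Junb-sufficient cells. One, at TSS -42.2 kb (chr2:127909310-127909914) and place 1925, covered a JunB peak at place 13937 and a BATF peak at place 3015. The other, at TSS +30.8 kb (chr2:127984381-127984985) and place 3285, lay on an exon and covered a JunB peak at place 1164 without BATF. In Junb-sufficient cells the IRF4 peak nearest to the latter was centred 1947 bp away, at the triple site of TSS +28.9 kb. The 2 IRF4 peaks missing in Junb-deficient cells, at TSS -14.1 and +7.96 kb, stood at places 18460 and 21225 and overlapped neither JunB nor BATF.

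Bbc3 encodes PUMA, a BH3-only protein best known as a target of p53. The gene (chr7:16894965-16903554, plus strand) had 3 JunB, 1 BATF and 6 IRF4 peaks, and 4 IRF4 peaks in Junb-deficient cells. Its triple site at TSS +30.3 kb, in an intron of Sae1, stood at place 1746 for JunB, 885 for BATF, 1323 for IRF4 and 3480 for IRF4 in Junb-deficient cells. This was the only one of the 37 JunB peaks with an AICE match. The IRF4 peak at TSS -12.6 kb (chr7:16882026-16882638), at place 16849, overlapped a JunB peak at place 23261 and had no counterpart in Junb-deficient cells, where the nearest IRF4 peak, 1935 bp away, was the counterpart of another peak. It was nearest to Ccdc9. The other missing IRF4 peak, at TSS +12.9 kb and place 18165, did not overlap JunB.

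Pmaip1 encodes NOXA, a BH3-only protein that binds MCL1. The gene (chr18:66618258-66625204, plus strand) had 4 JunB, 4 BATF and 6 IRF4 peaks, and 7 IRF4 peaks in Junb-deficient cells, and no TSS of another protein-coding gene lay in its window. All 6 IRF4 peaks were kept. The 3 triple sites lay at TSS +19.6, -5.28 and +43.5 kb, at JunB places 13699, 14694 and 22612 and BATF places 2059, 9207 and 9644. Their IRF4 peaks stood at places 2426, 7194 and 17311, and in Junb-deficient cells at places 789, 15102 and 17650. The places differed in both directions, up at TSS +19.6 kb and down at TSS -5.28 kb. The peak listed in Junb-deficient cells alone, at TSS -34.8 kb and place 25301, did not overlap JunB.

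Fas, the receptor for Fas ligand, is itself expressed on activated T cells. The gene (chr19:34365149-34402260, plus strand) had 3 JunB, 2 BATF and 7 IRF4 peaks, but 3 IRF4 peaks in Junb-deficient cells. With 5 of its 7 IRF4 peaks missing there, the window of Fas held the most missing peaks of the 10 genes. None of the 5 overlapped JunB or BATF. Near all protein-coding genes, 44.1% of the IRF4 peaks that overlapped neither were missing. The missing peaks of Fas at TSS -41.4 and -46.4 kb lay in introns of Acta2, whose TSS was nearer. Of the 5, that at TSS -3.28 kb stood at place 6299. The other 4, at TSS -15.4, -41.4, -46.4 and +43.9 kb, stood between places 24137 and 29529, in the last part of the list. In Junb-deficient cells an IRF4 peak at place 4972 was centred 99 bp upstream of the Fas TSS, 3185 bp from the missing peak at TSS -3.28 kb, and this peak had no counterpart in Junb-sufficient cells. An IRF4 peak was thus listed upstream of Fas in one genotype and at its start in the other.

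Within Fas, IRF4 was listed at both intronic BATF sites in both genotypes. The triple site at TSS +16.4 kb (chr19:34381443-34381593) stood at place 20564 for JunB, 8035 for BATF, 14431 for IRF4 and 17191 for IRF4 in Junb-deficient cells. At TSS +8.01 kb the highest JunB peak, at place 4597, overlapped a BATF peak at place 3381 and ended 16 bp short of an IRF4 peak at place 8544, which stood at place 3153 in Junb-deficient cells. It was therefore not counted as a triple site, and became one when JunB peaks were widened to 613 bp, a setting chosen after seeing the data.

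Casp8 encodes caspase-8, which Fas activates and which also holds necroptosis in check. The gene (chr1:58852218-58904347, plus strand) had 3 JunB, 2 BATF and 5 IRF4 peaks, and 6 IRF4 peaks in Junb-deficient cells. Its triple site at TSS +28.6 kb, in an intron, had the highest JunB place at any of the 10 genes, 284, with BATF at place 892 and IRF4 at place 1622. In Junb-deficient cells IRF4 was listed there at place 10242, 35.3% into its list against 5.22% in Junb-sufficient cells. The other 2 JunB peaks of Casp8, at TSS +2.27 and -33.9 kb and places 22830 and 7029, overlapped IRF4 without BATF. Both of these IRF4 peaks were missing in Junb-deficient cells, that at TSS +2.17 kb (chr1:58854087-58854699) from place 5635 and that at TSS -34.0 kb (chr1:58817946-58818558) from place 18776. For the former, a peak listed in Junb-deficient cells alone was centred 1927 bp away at TSS +0.248 kb and place 14450. The latter lay nearest to a TSS of Cflar, the gene of a caspase-8 inhibitor. At the downstream one of the 2 annotated TSSs of Casp8, IRF4 was listed in both genotypes, at place 2577 and, in Junb-deficient cells, place 1250, without JunB or BATF. IRF4 thus stayed at a start of Casp8 and was not listed without JunB at the JunB peaks that lacked BATF.

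Across the 10 genes, 16 of the 37 JunB peaks were triple sites (43.2%, 95% interval 27.1 to 60.5%), beside 34.1% of all JunB peaks within 50 kb of a protein-coding TSS, a value inside that interval. Neither BATF nor IRF4 was overlapped by 12 of the 37 (32.4%), beside 47.8%. Seen from the other lists, 19 of 24 BATF peaks overlapped JunB (79.2%, against 69.9%), 21 of 24 BATF peaks overlapped IRF4 (87.5%, against 88.5%) and 22 of 58 IRF4 peaks overlapped JunB (37.9%, against 38.5%). With so few peaks a difference in co-binding from other genes was not resolved.

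Among 58 IRF4 peaks with JunB present, 44 were kept and 14 were missing in Junb-deficient cells (24.1%, 13.9 to 37.2%), beside 34.3% near all protein-coding genes. Among the 22 that overlapped JunB, 4 were missing (18.2%, 5.19 to 40.3%), beside 23.4%. The missing peaks were also counted by BATF, a split that was not planned for this share. None of the 16 IRF4 peaks that overlapped both JunB and BATF was missing, which allows a share of up to 20.6%, beside 16.0% near all genes. Of the 6 that overlapped JunB without BATF, 4 were missing (66.7%, 22.3 to 95.7%), beside 41.7%. Among the 5 with BATF alone none was missing, with an upper bound of 52.2% beside 25.3%, and among the 31 with neither 10 were missing (32.3%, 16.7 to 51.4%), beside 44.1%. All 4 shares over other genes lay inside the intervals of the 10 genes. Among JunB-shared peaks the intervals were 0 to 20.6% with BATF and 22.3 to 95.7% without. They cannot decide a difference between these classes, since peaks of a library are not replicates. Only 3 genes, Casp8, Bcl2l1 and Bbc3, gave the 4 missing peaks. The BATF list was also shorter than that of IRF4, with 13570 against 31093 peaks, and the classes were not matched on place in the IRF4 list. Within 100 kb of a TSS the counts became 1 of 22 with BATF and 5 of 14 without. When any Junb-deficient IRF4 peak centred within 5 kb counted as a counterpart, a setting chosen after seeing the data, 0 of 16 and 1 of 6 were missing, since 3 of the 4 missing peaks had such a neighbour, 1927, 1935 and 3441 bp away.

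**Figure D3:**
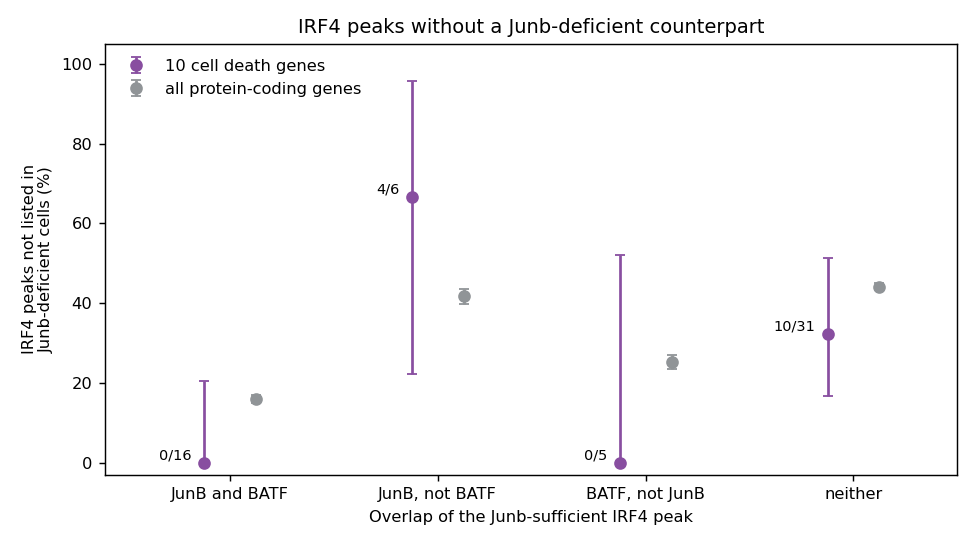
Share of IRF4 peaks of Junb-sufficient cells not listed in Junb-deficient cells, in percent on the y axis, for 4 classes of overlap on the x axis. Purple points are the 10 genes with their counts, grey points all protein-coding genes, and bars exact binomial 95% intervals over peaks. With JunB and BATF 0 of 16 peaks were missing and with JunB alone 4 of 6, and each grey point lies inside the purple interval of its class.

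Binding in the opposite direction was as frequent, with 14 of 58 Junb-deficient IRF4 peaks absent from the Junb-sufficient list (24.1%, 13.9 to 37.2%), beside 30.2% near all genes. On a JunB peak of Junb-sufficient cells lay 21 Junb-deficient IRF4 peaks, of which 3 had no Junb-sufficient counterpart (14.3%, 3.05 to 36.3%), beside 7.63%. These were the peaks at Bcl2l1 and the pair at Bcl2l11 described above. Losses and gains sat within 5 kb of each other at Bcl2l1, Fas and Casp8, so that 3 of the 14 missing peaks had a peak listed in Junb-deficient cells alone within that distance (21.4%, 4.66 to 50.8%), beside 10.6% of all missing peaks.

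At the TSSs themselves, IRF4 was listed within 1 kb at Bcl2l1 and Casp8 in Junb-sufficient cells and at Bcl2l1, Casp8 and Fas in Junb-deficient cells. These are 2 and 3 of the 10 genes, beside 24.8% and 27.2% of protein-coding genes. BATF was at the TSS of none of the 10, beside 4.97%. Most peaks counted for these genes thus lay more than 1 kb from their TSSs. A limit of 1 kb is a small part of the 50 kb window, so this need not be particular to these genes. A TSS of the assigned gene was the nearest protein-coding TSS for 27 of 37 JunB, 18 of 24 BATF, 32 of 58 IRF4 and 33 of 58 Junb-deficient IRF4 peaks, and peaks were called those of a gene by distance alone.

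For the 44 IRF4 peaks listed in both genotypes, places in both lists were set side by side as a share of each list. Of the 18 kept peaks that overlapped JunB, 12 stood lower in the Junb-deficient list, beside 61.1% of all 9539 such peaks. Of the 26 that did not overlap JunB, 10 stood lower, beside 42.7%. The 2 sets started apart, at medians of 10.3% and 54.1% of the Junb-sufficient list, and over all kept peaks at 18.2% and 56.6%. A peak near the top has little room to rise and one near the end little room to fall. None of the shares given here was matched on starting place, so the sets cannot be compared in direction. The 3 largest drops at JunB peaks were at Bcl2 TSS +13.6 kb, from 16.6% to 54.8% of the list, at Casp8 TSS +28.6 kb, from 5.22% to 35.3%, and at Pmaip1 TSS -5.28 kb, from 23.1% to 52.0%. Among all kept JunB-shared peaks, 7.28%, 11.3% and 11.8%, respectively, dropped at least as far. All 3 were triple sites. Peaks without JunB moved down as far, that at Bcl2 TSS -33.2 kb from 27.8% to 66.1% and that at Bcl2l1 TSS -31.8 kb from 61.6% to 94.6%, and 2.95% and 4.49% of all kept peaks without JunB did so at least as far. The Mcl1 site at TSS +46.0 kb rose from 4.31% to 0.472%.

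**Figure D4:**
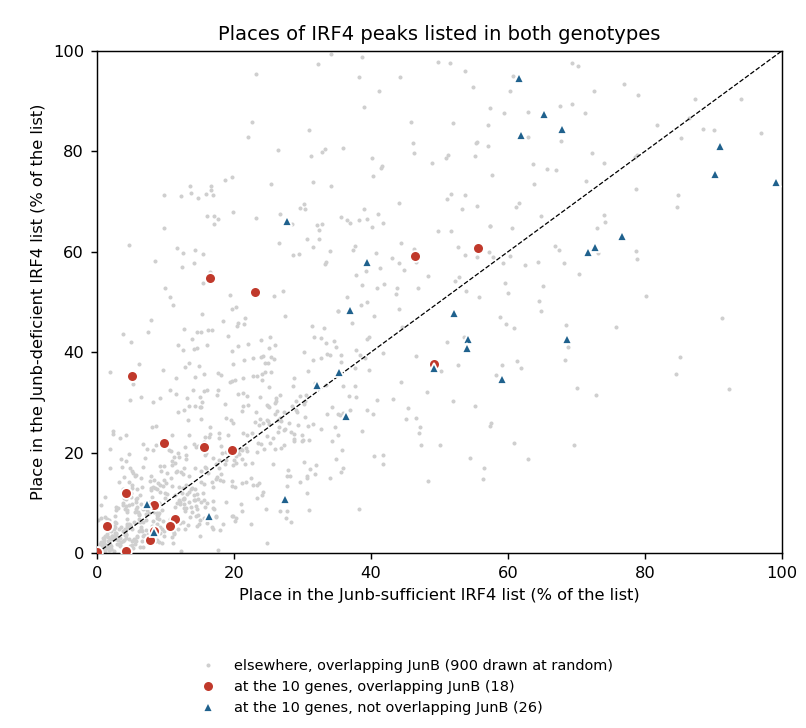
Place of each IRF4 peak listed in both genotypes, as a percentage of the Junb-sufficient list on the x axis and of the Junb-deficient list on the y axis (0% is the top). Red circles are the 18 peaks at the 10 genes that overlapped JunB, blue triangles the 26 that did not, grey dots 900 JunB-shared peaks elsewhere, and the dashed line marks equal places. The median Junb-sufficient place was 10.3% for red circles and 54.1% for blue triangles, and 12 of 18 red circles are above the line.

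Within 100 bp of the peak centre, on either strand, an exact AP-1 match was present at 14 of the 37 JunB peaks (37.8%, 22.5 to 55.2%), beside 24.5% of all 29659 JunB peaks. Among the 16 triple sites 8 held one (interval 24.7 to 75.3%), beside 42.0% of all triple sites. The 12 JunB peaks that overlapped neither BATF nor IRF4 held one in 4 cases (interval 9.92 to 65.1%), beside 12.4% of all such peaks. The values of 24.5%, 42.0% and 12.4% are over the whole JunB list, not over peaks near genes, and each lay inside its interval. AICE was searched as GAAA directly followed by TGANTCA or TGANTAA, or as TTTC and these after a gap of 4 bases, with AP-1 matches allowed to overlap, and was present at 1 of the 37 JunB peaks, that at Bbc3 TSS +30.3 kb within Sae1, beside 3.70% of all JunB peaks and 7.51% of triple sites.

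The distance limit left peaks near its edge on both sides. Inside, 16 peaks were centred 45 to 50 kb from a TSS, up to the IRF4 peak of Pmaip1 in Junb-deficient cells at 48032 bp upstream. Outside, 25 peaks were centred within 5 kb beyond the limit, the nearest being an IRF4 peak of Pmaip1 in Junb-deficient cells at 50303 bp.

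Other genes of the pathway, a list of 31, had JunB peaks in 21 cases (67.7%, beside 64.8% of all protein-coding genes), BATF peaks in 19 (61.3%, beside 48.9%), IRF4 peaks in 29 (93.5%, beside 74.0%) and triple sites in 16 (51.6%, beside 35.1%). An IRF4 peak within 1 kb of a TSS was listed at 12 of the 31 (38.7%, beside 24.8%) in Junb-sufficient cells. Of their 103 IRF4 peaks 27 were missing in Junb-deficient cells (26.2%, beside 34.3%), and of the 42 that overlapped JunB 7 were (16.7%, beside 23.4%). These peaks were not all separate from those of the 10 genes. The JunB-shared IRF4 peak missing at Casp8 TSS -34.0 kb lay 30856 bp from a Cflar TSS and was counted in both sets. Among the 27 triple sites of these genes, 2 had no IRF4 peak in Junb-deficient cells (7.41%), and 1 of them was at Fasl. Near all protein-coding genes, 16.0% of IRF4 peaks that overlapped JunB and BATF were missing. By the place of their best JunB peak, the leading genes were Casp6 (place 428), an executioner caspase with 4 triple sites, Apaf1 (477), the scaffold of the apoptosome with 1, and Fasl (772), the ligand of Fas, with 12 JunB peaks and 3 triple sites. They were followed by Ripk1 (1007), a kinase of death receptor signalling, Cycs (1102), encoding cytochrome c, and Cflar (1568), with 2, 1 and 1 triple sites. Bcl2a1a and Xiap had no peak in any list, and Bcl2a1a has near-identical copies, so its 0 is uncertain.

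As a check of cell type, which peak lists can give only loosely, the Treg genes Foxp3, Il2ra, Ctla4, Ikzf2 and Tnfrsf18 had 3, 12, 17, 7 and 4 JunB peaks within 50 kb. The myeloid gene Lyz2 had no peak in any list. Over all protein-coding genes, 64.8% had at least 1 JunB peak within 50 kb and 24.2% had at least 3, the count of Foxp3. These counts therefore do not identify the cell type. Binding is not expression, and the lists hold no measure of the RNA of these genes.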

How the data were processed

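ChIP-seq reads of 4 libraries, 1 per condition, were aligned by the authors to mm9 with Bowtie2, keeping uniquely aligned reads. Peaks were called in each library by itself with HOMER, the recorded command naming no control library. The HOMER version was 4.8 in the submitters' processing notes, whereas the study's reporting summary gives a later version. Per the file headers, calls used a false discovery rate of 0.001, at most 1 tag per bp and a 4-fold excess over the surrounding 10 kb. The deposited lists hold positions, which are given here counted from 1, and a constant score of 1, from which no height can be read.

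TSSs and genes were those of GENCODE on NCBIM37 (mm9). Peaks with 1 bp or more in common were taken as shared, and exact binomial intervals were computed over peaks. Motifs were read from the reference sequence in a window of 201 bp around JunB peak centres. Overlap, distance and motif searches were tested on simulated data. Python 3.11.15, NumPy 2.4.6, SciPy 1.17.1, pysam 0.24.0 and matplotlib 3.10.9 were used.

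Members and lists were chosen with earlier results of these data known. Named in full were all 10 genes, each gene's highest JunB peak, triple sites, JunB-shared IRF4 peaks missing in Junb-deficient cells and Junb-deficient IRF4 peaks at JunB peaks without a counterpart, with at most 4 of a kind per gene, and of 31 pathway genes at most 6 with a triple site or an IRF4 peak at a TSS, by the place of their best JunB peak. Alternatives changed the distance, the overlap, the TSS set, the part of the list, the motif and the antibody labels. Gene expression was not analysed here, and 1 marker gene and 2 peak sequences are not reported here.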

Additional observations from a re-analysis of the deposited data

How the results depend on the processing

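Over 72 values recomputed under the alternatives, 58 stayed within the interval of the reported share or within 1.5 times the reported count, and 14 moved. The share of JunB peaks that were triple sites ranged from 32.4% (within 100 kb of a TSS) to 48.0% (first 50% of each list), and the number of genes with a triple site from 6 (within 20 kb) to 8. IRF4 peaks missing in Junb-deficient cells ranged from 17.2% to 31.0% in all settings except the exchange of the BATF and IRF4 lists, as the antibody field has it. Under that exchange 0 of 24 peaks and 0 of 19 JunB-shared peaks were missing and 0 genes had a Junb-sufficient peak at a TSS. The share of Junb-deficient IRF4 peaks without a Junb-sufficient counterpart also depends on which list is IRF4, and it was not recomputed under the exchange. When any Junb-deficient IRF4 peak within 5 kb counted as a counterpart, a setting chosen after seeing the data, 4.55% of JunB-shared IRF4 peaks (1 of 22) remained missing. A limit of 5 kb to the TSS gave 5 genes with an IRF4 peak in each genotype. Medians per gene followed the distance: 1 JunB, 1 BATF, 3 IRF4 and 3 Junb-deficient IRF4 peaks within 20 kb, and 6.5, 3.5, 10.5 and 10.0 within 100 kb. None of the 16 IRF4 peaks with JunB and BATF was missing in the reported setting, and 1 was missing with centres within 100 bp (of 16), in the first 50% of each list (of 12) and within 100 kb (of 22). The causes of these moves were not tested. With 1 library per condition no library could be left out, and no paired analysis was possible because 1 library per condition was analysed. Peak heights, and with them changes at kept peaks, were beyond what the lists can show.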
